A study of Zea mays subsp. mays with 11 samples.

Results

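Among 659 PHAS loci of maize anthers, 71 loci that give 21-nt phased small interfering RNAs (phasiRNAs) lost abundance between 2 mm and 5 mm anthers of AGO18 heterozygotes. These 71 falling 21-PHAS loci were 71 of the 430 21-PHAS loci measured, and the other 229 loci were 24-PHAS loci. The members were chosen by measured values of the ago18HT libraries. A locus was taken as falling when its mean CPM (reads at the locus scaled by the reads of the library) in ago18HT-5mm, plus 1, was at most 0.667 of its mean CPM in ago18HT-2mm, plus 1. A list of 13 21-PHAS loci was set aside beforehand, and 0 of them met this limit. Of the rest, 305 were steady and 41 rose at least 1.5-fold on the same scale.

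The small RNAs came from TraPR libraries, which are made from small RNAs held in Argonaute (AGO) complexes and pass over free ones. The ago18HM plants were homozygous for mutations in all 3 AGO18 copies, with a CRISPR-Cas9 double null of ago18a and ago18b and a Mutator insertion in ago18c. The ago18HT plants were their siblings, heterozygous for the same 3 mutations, so no group was wild type. All plants were mostly, not wholly, of the B73 inbred background, and per the study's methods replicates were taken from different plants. There were 3 ago18HM-5mm, 2 ago18HM-2mm, 3 ago18HT-5mm and 3 ago18HT-2mm libraries of whole anthers. Anthers of 2 mm are in meiosis and anthers of 5 mm are past it.

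In grasses, 21-PHAS loci are transcribed into long noncoding precursors. Cleavage guided by miR2118 sets the start, an RNA-dependent RNA polymerase makes the precursor double-stranded, and a Dicer-like protein cuts it into a row of 21-nt products. In maize these phasiRNAs are best known from anthers before meiosis, and in rice the AGO5-clade protein MEL1 is known to load 21-nt phasiRNAs that begin with cytosine. An AGO protein chooses its small RNAs partly by the first (5′) base, so the major RNA of a locus, its most abundant small RNA, is described here by that base.

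The major RNAs below belong to the 5 loci with 5′ cytosine among those with the lowest ago18HM fold changes, to the 2 lowest 5′ adenine loci among those called in each alternative fit, and to the most abundant locus. They are shown because the share of loci called lower in ago18HM differed with the first base. They were read from the locus annotation of the study, made from B73 anther small RNAs on B73 RefGen_v5, not from these libraries. All 71 major RNAs were 21 nt long. Each is written 5′ to 3′, and capitals mark base 1 and bases 19 and 20.
B73_21PHAS_39762: CagaagugguaucugaggCUa
B73_21PHAS_3927: CcaggcagcucgaacgcaCUc
B73_21PHAS_39747: CgaucacaacaaauaggcCUa
B73_21PHAS_38580: CggcuaaugucuacugcaCCc
B73_21PHAS_39887: CaauaaguagaucagccaCUg
B73_21PHAS_21139: AguuguauggacaucaucUAg
B73_21PHAS_17589: AggauuggucuuugcgucGUa
B73_21PHAS_11720: AcacaugucaauguuucuCGu

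B73_21PHAS_39762 lies at chr7:18460193-18461187 on the minus strand, with B73_21PHAS_39747 at chr7:18238975-18239669 and B73_21PHAS_39887 at chr7:21585556-21586581 on the same strand and chromosome. B73_21PHAS_3927 is at chr1:167614010-167614633 on the plus strand. B73_21PHAS_38580, the shortest member at 317 bp, is at chr6:168659384-168659700 on the plus strand. B73_21PHAS_21139 is at chr4:4129289-4130065, where the annotation assigns no strand. B73_21PHAS_17589 at chr3:132568733-132569912 (plus strand) overlaps the lncRNA gene LOC109945284 of RefSeq, and B73_21PHAS_11720 is at chr2:141002472-141003716 (plus strand). Of the loci in this paragraph, only B73_21PHAS_17589 overlapped a RefSeq gene.

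Library depth moved with anther length. The CPM denominator was 5419067 to 17805878 reads at 5 mm and 33076189 to 53038060 reads at 2 mm, so depth and length cannot be told apart. Reads at the 71 loci numbered 56039 to 1226297 per library. The lowest value of any member in any library was 43 reads, and 0 values were 0. With reads thinned to the smallest denominator, 39 members were called lower in ago18HM, against 40 on the CPM as deposited. In bulk anthers, fewer cells that hold these small RNAs and less of them per cell cannot be told apart.

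In ago18HM anthers, whose libraries took no part in choosing the loci, the falling 21-PHAS loci were also less abundant at 5 mm. Their CPM summed to 14237, 10714 and 11651 in the ago18HM-5mm libraries, against 23121 and 19655 in the ago18HM-2mm libraries. The means were 12200 ± 1825 (SD, n = 3) and 21388 ± 2451 (SD, n = 2), a ratio of 0.570, and no 5 mm library reached a 2 mm library. The other 359 21-PHAS loci kept a ratio of 1.01, and the 24-PHAS loci had a ratio of 0.544. In ago18HT the same ratios were 1.07 for the other 21-PHAS loci and 1.25 for the 24-PHAS loci.

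The 71 loci held 14.2% ± 1.35 (SD, n = 3) of all 21-PHAS CPM in ago18HM-5mm and 22.6% ± 1.03 (SD, n = 2) in ago18HM-2mm. In ago18HT, where the rule itself chose the change, the shares were 12.6% ± 0.240 (SD, n = 3) at 5 mm and 22.8% ± 0.573 (SD, n = 3) at 2 mm. The corresponding ago18HT sums were 8820, 9179 and 9863 CPM at 5 mm and 17210, 17969 and 17718 CPM at 2 mm. Within each genotype every 5 mm share was below every 2 mm share.

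**Figure D1:**
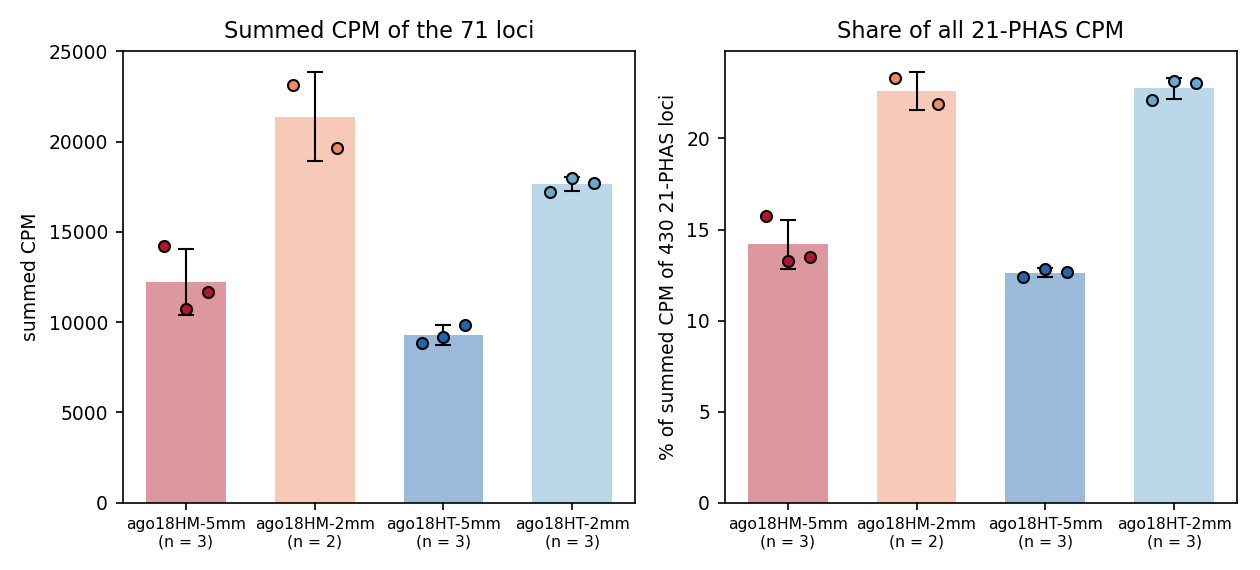
Summed CPM of the 71 falling 21-PHAS loci (left) and their share of the CPM of all 430 21-PHAS loci in percent (right), by group. Points are libraries, bars are means and error bars are SD. In both genotypes the 5 mm libraries lie below the 2 mm libraries, and the ago18HM libraries were not used to choose the loci.

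Locus by locus, 40 of the 71 members (56.3%) were lower at 5 mm in ago18HM (limma on log2(CPM + 1), Benjamini-Hochberg adjusted p below 0.05 over all 659 loci, fold change above 1.5). The same calls were made for 20.2% of all 659 PHAS loci. Among the other 21-PHAS loci, 27 of 359 (7.52%) were called lower. No member was called higher by limma, 0 were higher at an unadjusted p below 0.05, and limma-voom on reads gave 0 as well, against 3.95% of all loci called higher. The median log2 fold change was -0.81 for members (quartiles -1.20 and -0.48), -0.22 for all loci and -0.0041 for the other 21-PHAS loci.

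All ago18HM-5mm libraries were below both ago18HM-2mm libraries at 51 of 71 members (71.8%), against 34.7% of all loci and 19.8% of the other 21-PHAS loci. The reverse order, every ago18HM-5mm library above both 2 mm libraries, was seen at 0 members and at 13.4% of all loci. Of the 31 members not called, 28 had a log2 fold change below 0 and 11 had libraries that did not overlap. The steady loci were called lower at 26 of 305 (8.52%), and the rising loci at 0 of 41, with 10 of those called higher.

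The number of calls rested on the small ago18HM-2mm group. Without ago18HM-2mm replicate 1, the library with the higher sum, 20 members were called lower and the median was -0.70, and with the ago18HM libraries fitted alone 19 were called. The fit of 40 calls takes its estimate of spread from all 11 libraries. Calls at other 21-PHAS loci also became fewer with the ago18HM libraries fitted alone. There 2 of 37 with 5′ cytosine and 3 of 274 with 5′ adenine were called lower, against 9 and 15 in the fit of 40 calls. The share over all 659 loci is given only for the fit of 40 calls.

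**Figure D2:**
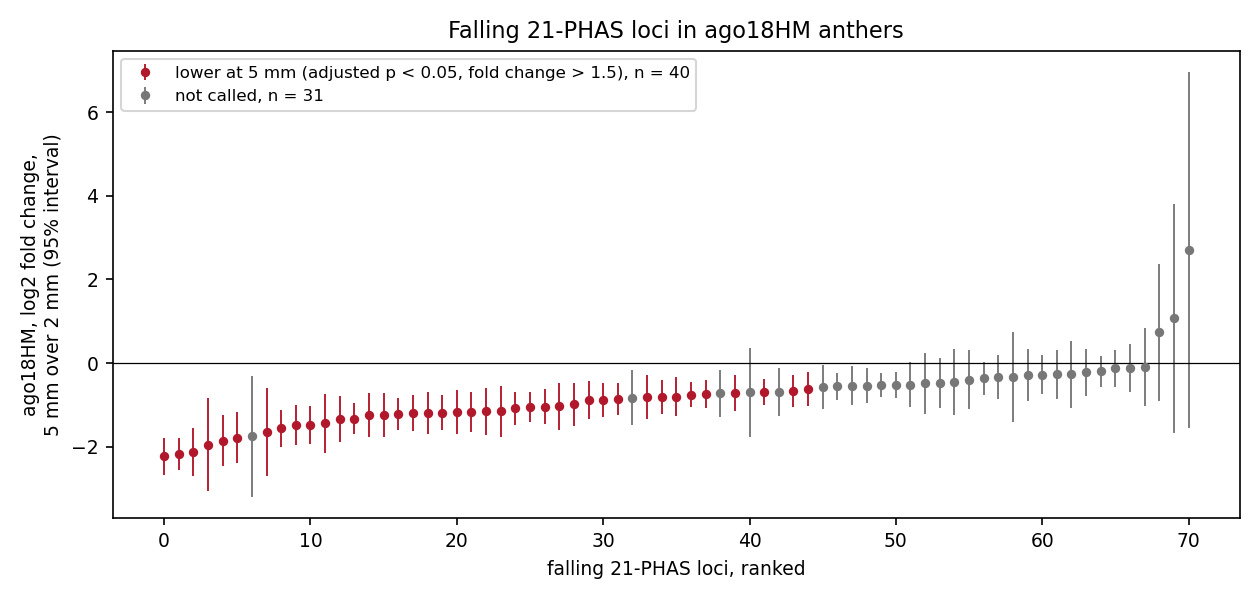
Log2 fold change of ago18HM 5 mm over 2 mm (y axis, log2(CPM + 1) scale) at each of the 71 falling 21-PHAS loci, ranked from the lowest. Points are limma estimates, lines are 95% intervals, and colour marks the 40 loci called lower and the 31 not called. The 3 estimates above 0, at the right end, have the widest intervals.

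The lowest fold change was at B73_21PHAS_39762. It had 81.5, 80.1 and 98.0 CPM in ago18HM-5mm, against 513 and 327 CPM in ago18HM-2mm, a log2 fold change of -2.24 (SE 0.20) with an adjusted p of 0.00021 by limma. The 2 ago18HM groups did not overlap. In ago18HT the same locus had 58.9, 61.7 and 67.8 CPM at 5 mm and 264, 294 and 295 CPM at 2 mm.

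B73_21PHAS_3927 had 41.1, 35.4 and 46.0 CPM in ago18HM-5mm, against 194 and 179 CPM in ago18HM-2mm. Replicates stayed close together here, and the log2 fold change was -2.17 (SE 0.17), at an adjusted p of 0.00011 by limma. B73_21PHAS_39747 had 88.5, 136 and 154 CPM at 5 mm, against 672 and 433 CPM at 2 mm of ago18HM, a log2 fold change of -2.13 (SE 0.26) that limma gave an adjusted p of 0.0014. These 3 loci with 5′ cytosine kept their call in each of the 23 alternative fits.

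B73_21PHAS_21139, with 5′ adenine, had 40.3, 59.8 and 64.6 CPM in ago18HM-5mm, against 255 and 153 CPM in ago18HM-2mm. Its groups were apart, with a log2 fold change of -1.85 (SE 0.28) and an adjusted p of 0.0028 by limma. B73_21PHAS_39887 had 48.9, 89.3 and 94.1 CPM at 5 mm, against 305 and 221 CPM at 2 mm, a log2 fold change of -1.79 (SE 0.27) at the same adjusted p. Both kept their call in each of the 23 alternative fits.

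B73_21PHAS_38580 was a low locus, with 3.03, 9.96 and 11.4 CPM in ago18HM-5mm, against 37.8 and 24.7 CPM in ago18HM-2mm. It was called lower (log2 fold change -1.95, SE 0.49, limma adjusted p = 0.022), and lost the call without either ago18HM-2mm library and with the ago18HM libraries fitted alone. B73_21PHAS_38572 had 64.3, 105 and 123 CPM at 5 mm, against 268 and 331 CPM at 2 mm (log2 fold change -1.65, limma adjusted p = 0.032). That call was lost in 5 alternative fits, with adjusted p up to 0.15.

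B73_21PHAS_7735 had a low fold change and wide spread. It had 239, 63.1 and 87.6 CPM in ago18HM-5mm, against 261 and 536 CPM in ago18HM-2mm. Its log2 fold change of -1.76 (SE 0.64) was among the 8 lowest, yet the limma adjusted p was 0.075. Without ago18HM-5mm replicate 1, the high library, it was called lower at -2.31 on the log2 scale.

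B73_21PHAS_14720, with 5′ adenine, was at the other end of the order. It had 178, 56.3 and 91.7 CPM in ago18HM-5mm, against 123 and 88.6 CPM in ago18HM-2mm, so the groups overlapped fully and its log2 fold change was -0.10 (SE 0.41). Without ago18HM-5mm replicate 2 the sign turned, at 0.29. In ago18HT it had 52.7, 80.1 and 55.4 CPM at 5 mm and 88.9, 105 and 95.3 CPM at 2 mm.

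The most abundant members behaved unevenly. B73_21PHAS_11720 had 2621, 1074 and 1180 CPM in ago18HM-5mm, against 2223 and 1460 CPM in ago18HM-2mm, so the groups overlapped and its log2 fold change of -0.27 (SE 0.36) was not called and stood at 0.031 without ago18HM-2mm replicate 1. In ago18HT it had 698, 774 and 762 CPM at 5 mm and 1086, 1210 and 1062 CPM at 2 mm. Its major RNA is also that of B73_21PHAS_11702, which is no member. Multi-mapped reads were counted, but the number of positions kept per read is not given in the sources used here. How far reads that map to both loci count at each is therefore uncertain.

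B73_21PHAS_17589, the locus over LOC109945284, had 370, 494 and 508 CPM in ago18HM-5mm, against 1444 and 1241 CPM in ago18HM-2mm. It was called lower at a log2 fold change of -1.56 (SE 0.20) and an adjusted p of 0.0014 by limma, and its groups were far apart. B73_21PHAS_3901 had 588, 567 and 601 CPM at 5 mm, against 935 and 754 CPM at 2 mm. Its log2 fold change of -0.52 had a limma adjusted p of 0.028 but missed the fold limit.

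B73_21PHAS_3920 had 206, 326 and 345 CPM in ago18HM-5mm, against 828 and 766 CPM in ago18HM-2mm, with a log2 fold change of -1.48. B73_21PHAS_47035 had 252, 309 and 345 CPM at 5 mm, against 707 and 685 CPM at 2 mm, with a log2 fold change of -1.21. Both had a limma adjusted p of 0.0022 and groups without overlap. B73_21PHAS_48347 had 480, 301 and 343 CPM at 5 mm, against 591 and 486 CPM at 2 mm, and its log2 fold change of -0.54 was not called (limma adjusted p = 0.090).

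Per kb of locus, members spanned a wide range of levels. The median over members was 130 CPM per kb in ago18HM-5mm (18.6 to 1305), 254 in ago18HM-2mm (17.1 to 1479), 102 in ago18HT-5mm (8.07 to 598) and 224 in ago18HT-2mm (17.3 to 899). B73_21PHAS_11720 was the highest member per kb in all 4 groups.

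**Figure D3:**
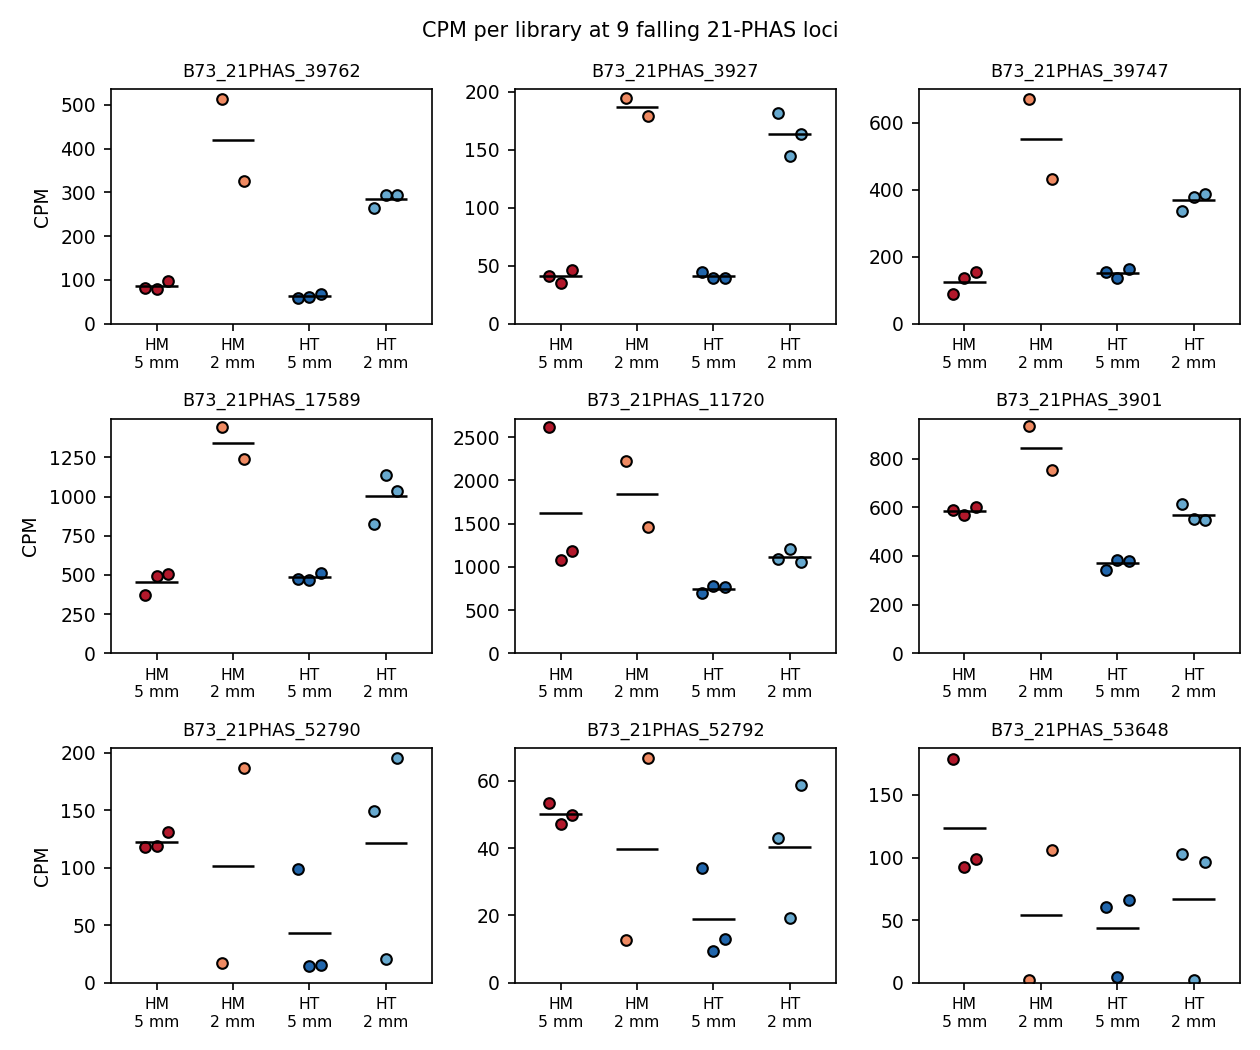
CPM in every library at 9 falling 21-PHAS loci, with points for libraries and lines for group means (HM, ago18HM; HT, ago18HT). The top row holds the 3 lowest ago18HM fold changes, the middle row the 3 most abundant members, and the bottom row the 3 loci of chromosome 10 with large spread within groups. In the top row the ago18HM 5 mm and 2 mm libraries are apart. In the bottom row libraries of the same group lie far apart in every group except ago18HM-5mm.

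Of the 71 members, 59 differed less than 2-fold between the libraries of each group. The median ratio of the highest to the lowest library was 1.45 in ago18HM-5mm, 1.24 in ago18HM-2mm, 1.24 in ago18HT-5mm and 1.22 in ago18HT-2mm. In 3 members, all on chromosome 10, the ratio went above 5 in at least 1 group, and these were the only members with an ago18HM log2 fold change above 0.

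The widest spread was at B73_21PHAS_53648, which overlaps the protein-coding gene LOC109943145. It had 179, 92.27 and 99.02 CPM in ago18HM-5mm, against 2.11 and 106 CPM in ago18HM-2mm. In ago18HT it had 60.3, 4.43 and 66.0 CPM at 5 mm and 103, 1.87 and 96.5 CPM at 2 mm. One library in each of the other 3 groups was nearly empty while its fellows were not, so its log2 fold change of 2.70 had an SE of 1.89 and an adjusted p of 0.36 by limma.

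B73_21PHAS_52790 had 118, 119 and 131 CPM in ago18HM-5mm, against 17.5 and 186 CPM in ago18HM-2mm. Its ago18HT values were 98.7, 14.5 and 15.3 CPM at 5 mm and 149, 20.95 and 195 CPM at 2 mm. B73_21PHAS_52792, the next of the 21-PHAS loci at a distance of 24334 bp, had 53.5, 47.1 and 49.7 CPM in ago18HM-5mm, against 12.8 and 66.9 CPM in ago18HM-2mm. Both were low in ago18HM-2mm replicate 1, ago18HT-5mm replicates 2 and 3 and ago18HT-2mm replicate 2, and neither was called (log2 fold changes 1.07 and 0.74, limma adjusted p of 0.62 and 0.55).

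Without ago18HM-2mm replicate 1 the log2 fold changes of B73_21PHAS_52790 and B73_21PHAS_52792 turned to -0.60 and -0.41. A ratio above 5 in at least 1 group was also seen at 15 of the other 359 21-PHAS loci.

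The first base of the major RNA was not used to choose the loci. It was cytosine at 19 of the 71 members (26.8%), against 37 of the other 359 21-PHAS loci (10.3%). Steady loci had 10.8% and rising loci 7.32%. Adenine led in both sets, at 50 members (70.4%) and 274 other loci (76.3%). Guanine began 1 member and 29 other loci (8.08%), and uracil 1 member and 19 other loci (5.29%).

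Within the members, the change in ago18HM differed by this base. Of the 19 members with 5′ cytosine, 17 (89.5%) were called lower, all 19 had ago18HM-5mm libraries below the ago18HM-2mm libraries, and the median log2 fold change was -1.16. Of the 50 with 5′ adenine, 21 (42.0%) were called lower, 30 had such a separation, and the median was -0.68. Over all 659 loci, 20.2% were called lower and 34.7% had such a separation. In ago18HT, the contrast of the rule, the median log2 fold change was -1.02 for cytosine members and -0.79 for adenine members. Whether the difference by base follows from this depth of the fall was not tested. The pair not called among the cytosine loci were B73_21PHAS_3901 and B73_21PHAS_3883, with log2 fold changes of -0.52 and -0.54. B73_21PHAS_3901 is among the most abundant members, while B73_21PHAS_3883 was named after its values were seen.

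Among loci that the rule left out, those with 5′ cytosine were also called lower more often than those with 5′ adenine. Of the other 21-PHAS loci, 9 of 37 with 5′ cytosine (24.3%, median -0.24) and 15 of 274 with 5′ adenine (5.47%, median 0.03) were called lower in ago18HM. The share over all 659 loci was 20.2%, so the cytosine share here was near it and the adenine share below it. With 5′ guanine 3 of 29 others (10.3%) were called lower, and with 5′ uracil 0 of 19. Of these others, 0 cytosine and 20 adenine loci were called higher, against 3.95% of all 659 loci. Among members this was so at 0 loci of either base. Over all 430 loci, cytosine began 26 of the 67 called lower (38.8%) and 30 of the 363 not called lower (8.26%).

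Summed over loci, the 19 cytosine members had 2985, 3092 and 3275 CPM in ago18HM-5mm, against 7499 and 6454 CPM in ago18HM-2mm, a ratio of means of 0.447. The 50 adenine members had 11224, 7586 and 8340 CPM at 5 mm, against 15533 and 13140 CPM at 2 mm, a ratio of 0.631. The cytosine sums lay close together at 5 mm, while the adenine sum of ago18HM-5mm replicate 1 stood above its fellows. The adenine locus B73_21PHAS_11720 alone had 2621 CPM in that library, against 1074 and 1180 CPM in the other ago18HM-5mm libraries. Its own ratio of means was 0.882, so it raised the adenine ratio, and the ratio without it was not computed. Cytosine members made up 20.97%, 28.9% and 28.1% of the members' CPM in ago18HM-5mm, against 32.4% and 32.8% in ago18HM-2mm. At the other 21-PHAS loci the same ratios of ago18HM 5 mm over 2 mm were 0.805 for cytosine and 1.04 for adenine loci.

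In ago18HT, where the rule fixed the direction, the cytosine members made up 27.5%, 28.3% and 28.6% of the members' CPM at 5 mm and 33.3%, 30.9% and 31.5% at 2 mm. Their sums had a ratio of 0.465 and those of the adenine members 0.555. The other cytosine loci summed to nearly equal values there, with a ratio of 0.9997.

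The cytosine members stood mainly on chromosomes 1 (6 loci) and 7 (5 loci). On chromosome 1, 857.8 kb of genome between B73_21PHAS_3883 and B73_21PHAS_3927 held 25 21-PHAS loci, of which 6 were members. Cytosine began the major RNA of 5 of these 6 members and of 2 of the 19 others. On chromosome 7, 3347.6 kb between B73_21PHAS_39747 and B73_21PHAS_39887 held 29 21-PHAS loci with 6 members, 4 of them with cytosine. Of these members, 4 of 6 were called lower in ago18HM on chromosome 1 and 5 of 6 on chromosome 7, against 56.3% of all members and 20.2% of all loci. Of the others there, 0 of 2 with cytosine and 0 of 16 with adenine were called lower on chromosome 1. On chromosome 7 these counts were 1 of 2 with cytosine and 3 of 19 with adenine. Both stretches were picked with the values in view.

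Further cytosine members from these stretches, also picked in this way, changed less than the lowest loci there. B73_21PHAS_3924 had 128, 154 and 157 CPM in ago18HM-5mm, against 261 and 368 CPM in ago18HM-2mm, with a log2 fold change of -1.08. B73_21PHAS_39884 had 309, 258 and 256 CPM at 5 mm, against 647 and 498 CPM at 2 mm, with a log2 fold change of -1.05. Both were called lower, and their libraries did not overlap. B73_21PHAS_3883, at the edge of the chromosome 1 stretch, had 134, 90.4 and 114 CPM at 5 mm, against 154 and 171 CPM at 2 mm, and its limma adjusted p was 0.060.

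For precision, the median of the mean CPM was 195 for members with 5′ cytosine and 156 for those with 5′ adenine, and the median SE was 0.20 and 0.24. Without ago18HM-2mm replicate 1, 9 of 19 cytosine and 10 of 50 adenine members were called, with medians of -1.19 and -0.60, and among the other loci 2 of 37 and 2 of 274. Over all 23 alternatives the cytosine median of members lay between -1.24 and -1.05 and the adenine median between -0.80 and -0.58. These are counts of loci, which are not replicates of one another, and no test was made of them.

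**Figure D4:**
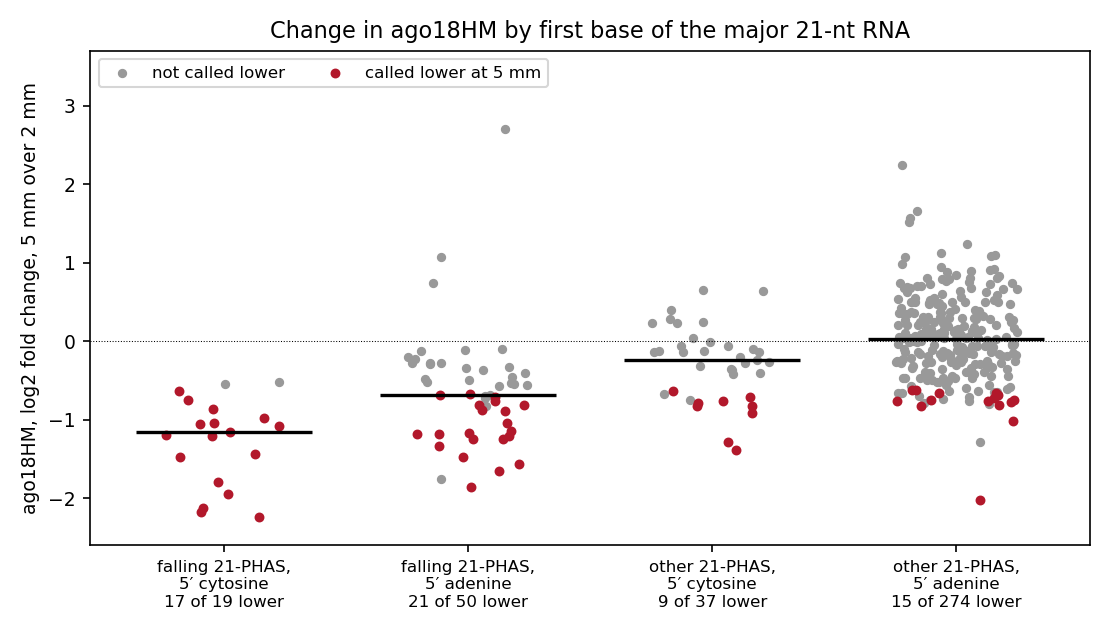
Log2 fold change of ago18HM 5 mm over 2 mm (y axis) at 21-PHAS loci split by the first base of the annotated major RNA, for falling loci (left pair) and other loci (right pair). Points are loci, lines are medians, and loci called lower are in red. In both pairs the cytosine loci sit lower than the adenine loci, with medians of -1.16 and -0.68 for falling loci and of -0.24 and 0.03 for the others.

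Base 20 of the major RNA was uracil at 38 members (53.5%) and at 38.0% of the 21-nt major RNAs of the other 21-PHAS loci. Among those others, the 13 loci set aside had uracil there at 7 (53.8%), a share like that of the members. Base 19 was cytosine at 46.5% of members and 42.7% of the others. Cytosine at base 19 followed by uracil at base 20, as in B73_21PHAS_39762 and B73_21PHAS_3927 above, was found in 24 members (33.8%) and 79 others (22.1%). Both of these examples have 5′ cytosine. Among members the pair was more frequent with 5′ cytosine than with 5′ adenine, so it cannot be read apart from the first base. Major RNAs were otherwise almost all distinct, since 3 members shared theirs with another PHAS locus and 0 had a near copy at 1 to 3 differing bases.

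The members were also split by the ago18HT ratio that chose them, as a description with no test. Among the 24 members with an ago18HT ratio of 0.5 or less, 18 (75%) were called lower in ago18HM, with a median log2 fold change of -1.24. Among the 47 with a ratio above 0.5, 22 (46.8%) were called lower, with a median of -0.69. The share over all 659 loci was 20.2%. Across the 71 loci the fold changes of the 2 genotypes, which have no library in common, had a Pearson r of 0.56 and a Spearman rho of 0.59. Without the 3 chromosome 10 loci of large spread, set aside after their values were seen, r was 0.74 and rho 0.67, and over all 430 21-PHAS loci r was 0.68 and rho 0.71. Loci share libraries and depth, and the x values chose the members, so these describe the plot and carry no p.

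**Figure D5:**
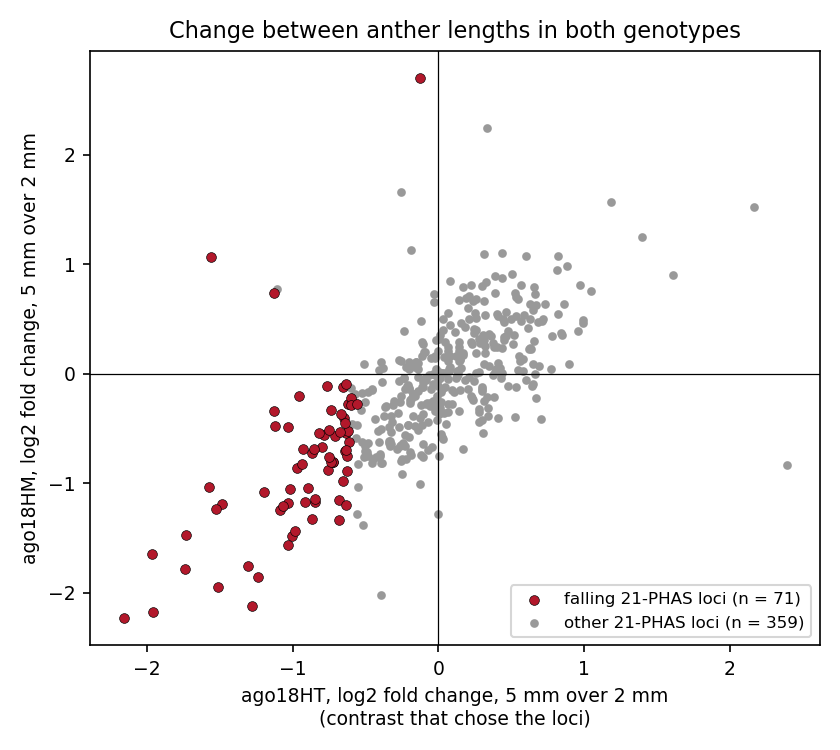
Log2 fold change of 5 mm over 2 mm in ago18HM (y axis) against ago18HT (x axis, the contrast that chose the loci) at 430 21-PHAS loci. Red points are the 71 falling loci and grey points the other 359. Of the falling loci 68 lie below 0 on the y axis, and the 3 above 0 are the chromosome 10 loci with large spread within groups.

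At the limit of the rule, the members just inside were B73_21PHAS_39872 (ratio 0.66696), B73_21PHAS_11720 (0.665) and B73_21PHAS_43223 (0.661). Just outside were B73_21PHAS_39868 (0.66722), B73_21PHAS_39743 (0.670) and B73_21PHAS_21647 (0.674). B73_21PHAS_39872 had 246, 129 and 151 CPM in ago18HM-5mm, against 246 and 172 CPM in ago18HM-2mm. B73_21PHAS_43223 had 184, 179 and 198 CPM in ago18HM-5mm, against 214 and 241 CPM in ago18HM-2mm. Neither was called, at log2 fold changes of -0.29 and -0.28. In ago18HT, the contrast of the rule, all 5 mm libraries were below all 2 mm libraries at 67 members (94.4%), against 24% of all loci. The choice of members favours this order, so the gap between these shares is no separate result.

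Falling loci lay on all 10 chromosomes, with 14 of 93 21-PHAS loci on chromosome 2, 13 of 70 on chromosome 7, 11 of 62 on chromosome 4 and 10 of 88 on chromosome 1. The highest share was 3 of 6 on chromosome 8, followed by 6 of 17 on chromosome 9. Like other 21-PHAS loci, members stood in clusters. Another 21-PHAS locus lay within 100 kb of 68 members (95.8%) and of 344 other loci (95.8%), and 26 members had another member as the next 21-PHAS locus. Their median length was 907 bp (317 to 2532), against 941 bp for the others, and 7 overlapped a RefSeq gene (9.86%), against 24 others (6.69%).

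There were 4 runs of 3 members next to each other in the order of 21-PHAS loci. On chromosome 9, B73_21PHAS_48347, B73_21PHAS_48351 and B73_21PHAS_48352 lay within 30.3 kb. B73_21PHAS_48351, with 5′ cytosine, had 182, 178 and 171 CPM in ago18HM-5mm, against 331 and 267 CPM in ago18HM-2mm, and was called lower (log2 fold change -0.75, limma adjusted p = 0.0087). B73_21PHAS_48352, with 5′ adenine, had 228, 117 and 137 CPM at 5 mm, against 183 and 153 CPM at 2 mm. Its groups overlapped, and its log2 fold change was -0.12. The adjacent loci of this run thus had different values in ago18HM. The call of B73_21PHAS_48351 was lost without ago18HM-2mm replicate 1 and with the ago18HM libraries alone, at a limma adjusted p of up to 0.067.

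A run on chromosome 5 of 195.6 kb held B73_21PHAS_27241 and B73_21PHAS_27242, both over the protein-coding gene LOC103625827, and B73_21PHAS_27261. B73_21PHAS_27261 had 56.7, 42.8 and 41.0 CPM in ago18HM-5mm, against 113 and 99.2 CPM in ago18HM-2mm, and was called lower (log2 fold change -1.17, limma adjusted p = 0.0054). B73_21PHAS_27241 had 439, 134 and 232 CPM at 5 mm, against 452 and 202 CPM at 2 mm. B73_21PHAS_27242 had 407, 194 and 287 CPM at 5 mm, against 491 and 321 CPM at 2 mm. Both loci over the gene overlapped between lengths in ago18HM, with log2 fold changes of -0.33 and -0.49 that were not called.

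The run of chromosome 8 joined B73_21PHAS_45101 and B73_21PHAS_45102, 634 bp apart, with the distant B73_21PHAS_47035, so that the run spanned 80021.9 kb. B73_21PHAS_45101 had 257, 176 and 149 CPM in ago18HM-5mm, against 509 and 347 CPM in ago18HM-2mm, and was called lower (log2 fold change -1.15, limma adjusted p = 0.018). That call was lost without ago18HM-2mm replicate 1, without ago18HM-5mm replicate 3 and with the ago18HM libraries alone (adjusted p up to 0.12 with limma). Its neighbour B73_21PHAS_45102 had 26.8, 19.01 and 15.1 CPM at 5 mm, against 22.3 and 33.8 CPM at 2 mm, with a log2 fold change of -0.45 and overlapping groups.

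Between genotypes the falling loci were close to other 21-PHAS loci at 2 mm. The ago18HM mean sum was 1.31 times the ago18HT one at 5 mm and 1.21 times at 2 mm, against 1.15 and 1.22 for the other 21-PHAS loci. For comparison, 24-PHAS sums in ago18HM were 0.0916 (5 mm) and 0.211 (2 mm) of those in ago18HT. CPM is a share of the library, so a loss of 24-nt reads and a rise of 21-nt values are not independent, and their link was not tested.

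At 5 mm, all ago18HM libraries were above all ago18HT libraries at 24 members (33.8%), against 15.3% of all loci and 19.5% of the other 21-PHAS loci. At 2 mm this was so at 25 members (35.2%), against 23.8% of all loci and 36.8% of the others. The median log2 difference of ago18HM over ago18HT was 0.26 at 5 mm and 0.19 at 2 mm for members. For the other 21-PHAS loci it was 0.10 at 5 mm and 0.21 at 2 mm. These comparisons, and the sums of both genotypes above, share the ago18HT libraries with the rule, so they are given as values with no test. The rule took loci with low ago18HT-5mm values relative to ago18HT-2mm, which favours higher ago18HM over ago18HT values at 5 mm. The larger 5 mm values of members therefore cannot be read as an effect of genotype. At B73_21PHAS_11720 the log2 difference was 1.004 at 5 mm and 0.69 at 2 mm, and at B73_21PHAS_3901 it was 0.66 and 0.56. At B73_21PHAS_3927 it was -0.01 and 0.20.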

How the data were processed

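Small RNA libraries (RealSeq-AC) of TraPR fractions from 11 anther samples were analysed, with groups taken from the sample labels. Per the labels and the study's methods, the authors mapped reads to B73 RefGen_v5 with Bowtie 1.3.1, counted them at PHAS loci with featureCounts 1.6.3 set to count multi-mapped reads (the number of positions kept per read is not given in the sources used here), and deposited CPM values made with edgeR 4.0.2. In each library 100% of the CPM values were whole multiples of 1 step within 0.0001 reads, which gave reads and denominators. A filter of 1 CPM or more in 2 or more libraries removed 0 of the 659 loci. Log2(CPM + 1) was fitted with limma 3.58.1 in R 4.3.3 (4 group means over 11 libraries, eBayes with trend, two-sided, Benjamini-Hochberg over 659 loci), and a call needed both a 1.5-fold change and an adjusted p under 0.05. This scale understates changes at low loci. In simulated data with 659 loci, the fit of ago18HM 5 mm over 2 mm recovered 34% of 1.5-fold, 86% of 2-fold and 100% of 4-fold changes, with 8 false calls among 459 unchanged loci. The simulation gave every locus the same added spread between libraries, while measured spread differed by locus. These rates therefore need not hold at loci of large spread. Named loci were the 8 lowest and 4 highest ago18HM fold changes, the 6 most abundant members, the members nearest the limit of the rule and the first 3 runs; any other locus was picked with its values in view. The members, lists and splits were chosen with earlier results of these data known. Locus positions and major RNAs came from the locus annotation of the study, and genes from RefSeq on the same assembly; no abundance value was taken from either.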

Additional observations from a re-analysis of the deposited data

How the results depend on the processing

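A median below 0 for the 71 loci in ago18HM was kept in every alternative run, with a median log2 fold change between -0.90 and -0.70, while the number called lower was less stable. It was 19 with the ago18HM libraries fitted alone and 26 at an adjusted p below 0.01, against 40 in the fit as reported. Leaving out 1 library at a time gave 20 to 47, the low end without ago18HM-2mm replicate 1, a library of the group of 2. The other alternatives (pseudocounts of 0.1 and 5, filters, scalings, other variance settings, reads thinned to the smallest denominator, no fold limit, limma-voom on reads and members chosen again without each ago18HT library) gave 37 to 43, and 0 members were called higher wherever this was counted. Limma-voom was added after seeing the data, and the planned edgeR fit was not run because the recovered reads could not be checked on low values. The ratio of summed CPM lay between 0.523 and 0.621. Median ratio scaling moved the median of all loci by 0.10 on the log2 scale. With a replicate block, 40 were called and the median was -0.82. By the median, same-numbered libraries deviated together no more than others (r -0.18 over 15 pairs, against 0.10 over 30 pairs of different numbers). Single pairs reached 0.57 with the same number and 0.61 with different numbers. The numbers were not taken to pair samples.

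Of 27 named loci 13 were called lower, and 9 of these kept the call in all 23 alternatives. Loci whose sign turned were not called in the fit as reported. B73_21PHAS_14720 (-0.10) stood at 0.0035 under median ratio scaling and ranged from -0.53 to 0.29 when 1 library was left out. Leaving out 1 library at a time, B73_21PHAS_11720 ranged from -0.68 to 0.031, B73_21PHAS_27241 from -0.91 to 0.25, B73_21PHAS_48352 from -0.40 to 0.082, B73_21PHAS_52790 from -0.60 to 2.74 and B73_21PHAS_52792 from -0.41 to 1.88. All 6 signs turned without ago18HM-2mm replicate 1, and those of B73_21PHAS_14720, B73_21PHAS_27241 and B73_21PHAS_48352 also without ago18HM-5mm replicate 2. A lone ago18HM-2mm library was assumed to vary like the other groups. The cause was not tested. Values of 2 libraries stand for ago18HM-2mm, depth was lower at 5 mm in every library, and loci of similar sequence can share reads.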
